A study of Homo sapiens with 6 samples.

Results

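Genes that mark the differentiated thyroid follicular cell were read in 8505C cells, an established line of anaplastic thyroid cancer (ATC). The 9 genes, chosen by name, were TG, TSHR, PAX8, NKX2-1, FOXE1, SLC5A5, DIO1, DIO2 and DUOX2, out of 32985 genes in the deposited table. Of these, 8 had a row, and TSHR had none. The poly(A) RNA-seq libraries were 3 of wild-type 8505C cells given control siRNA (siCtrl) and 3 of 8505C cells given an siRNA against NUF2 (siNUF2), all labelled 24 h. NUF2 is a subunit of the NDC80 complex, which ties kinetochores to spindle microtubules. All 6 libraries came from 1 cell line in culture, and nothing in the labels says whether the libraries of a group came from separate cultures, so p-values measure the spread between these libraries.

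Thyroid hormone is made on thyroglobulin (TG), a large secreted protein. The follicular cell takes up iodide through the sodium/iodide symporter (SLC5A5), and the oxidase DUOX2 supplies the hydrogen peroxide with which iodine is joined to TG. TSH acts through its receptor (TSHR) and cAMP to drive this program, and the transcription factors PAX8, NKX2-1 and FOXE1 together define the lineage. The deiodinases DIO1 and DIO2 convert thyroxine to the active hormone triiodothyronine. Anaplastic cancers are known for low expression of these genes. Since the series holds no normal thyroid and no differentiated line, a loss could not be tested, and the levels were set against the other genes of the same cells.

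Libraries held 61257859 to 69755291 counts in all, so 3 counts, the floor used here, correspond to 0.043 to 0.049 CPM. NUF2 itself fell as labelled, with 14.8, 14.5 and 12.2 FPKM in siCtrl 1, 2 and 3 and 1.53, 2.05 and 1.56 FPKM in siNUF2 1, 2 and 3 (log2 fold change -2.98, SE 0.17, adjusted p = 0.000591 by edgeR's quasi-likelihood test). FPKM are fragments scaled by the length of the transcript and the size of the library, so levels of different genes can be compared. Both libraries numbered 1 stood apart from the other 4 in the genes given next, which does not speak for the libraries as a whole. HBB, a globin of red cells, was at 12.4 FPKM in siCtrl 1 and 4.24 FPKM in siNUF2 1 and at most 0.0728 FPKM elsewhere, and LYZ, a lysozyme of myeloid cells, was at 7.47 and 0.434 FPKM and at 0 elsewhere. COL1A2, a collagen of mesenchymal cells, was at 0 in both and between 0.701 and 1.15 FPKM in the rest. HBB, LYZ and COL1A2 are named here after their values were seen. Without both libraries numbered 1 the log2 fold change of NUF2 was -2.86 (adjusted p = 0.116 by edgeR), and the tests below are given without them as well.

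The promoters of 3 starts are shown because the levels and the difference between groups described below belong to these genes. That difference, in DIO2, was not called by edgeR with group alone in the design (adjusted p = 0.231). Each sequence is 300 bases of GRCh38 on the strand of the gene, 250 before the annotated start and 50 after it. For NKX2-1, the member of highest level, and FOXE1, a member of a few counts, the table of RefSeq promoters (GRCh38.p14) gives the following windows, with every CpG in capitals. The NKX2-1 window lies at chr14:36520183-36520482 on the minus strand and the FOXE1 window at chr9:97852976-97853275 on the plus strand.
NKX2-1: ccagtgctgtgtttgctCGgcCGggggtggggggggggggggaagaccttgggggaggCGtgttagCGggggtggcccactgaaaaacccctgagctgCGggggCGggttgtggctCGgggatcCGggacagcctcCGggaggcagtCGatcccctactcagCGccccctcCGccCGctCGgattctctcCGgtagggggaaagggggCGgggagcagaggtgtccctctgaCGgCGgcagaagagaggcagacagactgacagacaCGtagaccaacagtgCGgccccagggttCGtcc
FOXE1: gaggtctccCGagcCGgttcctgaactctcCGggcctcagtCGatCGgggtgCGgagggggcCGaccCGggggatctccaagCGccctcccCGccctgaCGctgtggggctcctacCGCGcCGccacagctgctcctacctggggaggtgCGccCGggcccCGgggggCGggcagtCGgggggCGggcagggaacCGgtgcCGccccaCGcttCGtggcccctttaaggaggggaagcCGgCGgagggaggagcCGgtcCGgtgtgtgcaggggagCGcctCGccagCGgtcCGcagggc

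The NKX2-1 window held 21 CpG and the FOXE1 window 32, against a median of 14 over 35116 RefSeq windows of this length. They lay at the percentiles 62.3 and 82.8 of all windows. A second RefSeq window of NKX2-1, at chr14:36519507-36519806, held 11 CpG and lay at the percentile 46.9. The windows of PAX8, SLC5A5, DUOX2 and TSHR held 13, 12, 18 and 10 CpG, and those of DIO1 and of 2 DIO2 starts held 3 each. No methylation was measured.

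DIO2 was the only member whose libraries did not overlap between groups, which held for 19.8% of all tested genes. A RefSeq window of DIO2 at chr14:80212129-80212428 on the minus strand is shown. The motifs searched on both strands are in capitals. They are TGACGTCA (the cAMP response element), CTCAAG (the core of known NKX2-1 sites) and TATAAA (the TATA box), and none of them overlaps another in this window.
DIO2, RefSeq start: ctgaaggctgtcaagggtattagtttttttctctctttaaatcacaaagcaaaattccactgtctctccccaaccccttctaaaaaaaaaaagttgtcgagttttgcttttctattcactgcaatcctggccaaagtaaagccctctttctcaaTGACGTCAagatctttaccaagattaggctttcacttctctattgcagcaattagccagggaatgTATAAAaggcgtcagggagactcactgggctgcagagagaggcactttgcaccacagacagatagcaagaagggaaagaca

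The DIO2 window held 1 TGACGTCA, beginning 96 bases before the start, and 1 TATAAA, beginning 31 bases before it, and no CTCAAG. A second RefSeq window of DIO2, at chr14:80211455-80211754, held none of the 3 motifs, and no DIO2 transcript that the table names starts at either. Over all RefSeq windows, 1.85% held TGACGTCA, 12.4% held CTCAAG and 11.5% held TATAAA. Of the other members' windows, CTCAAG was present in 1 of the 2 windows of NKX2-1, past its start. TATAAA was present in that of DUOX2 on the opposite strand, 127 bases before the start. A match is a description of letters, not a site in use.

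Of the lineage factors, NKX2-1 was well expressed, PAX8 was low and FOXE1 was at a few counts. NKX2-1 (ENSG00000136352, chromosome 14 from 36516392 to 36520232, minus strand) encodes a homeodomain factor of thyroid, lung and forebrain that activates TG. Its FPKM were 14.6, 19.5 and 21.5 in siCtrl 1, 2 and 3 and 14.6, 19.2 and 20.2 in siNUF2 1, 2 and 3, on 3573 to 5067 counts per library. The groups overlapped throughout, and the lowest library of each group was the one numbered 1. The mean over 6 libraries was 18.3 ± 2.96 FPKM (SD, n = 6), rank 2220 of the 32985 genes and the percentile 87.3 of the 16441 genes with a protein-coding transcript in the table. NKX2-1 made up 95.9% of the members' summed FPKM.

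PAX8 (ENSG00000125618, chromosome 2 from 113215997 to 113278921, minus strand) encodes a paired-box factor that activates TG and SLC5A5. Its FPKM were 0.641, 0.389 and 0.694 in siCtrl and 0.774, 0.43 and 0.379 in siNUF2, on 203 to 444 counts. The groups overlapped, with the highest and the lowest library both in siNUF2. The mean of 0.551 FPKM was at the percentile 32.6 of protein-coding genes. The lowest NKX2-1 library was 18.8 times the highest PAX8 library, and the mean was 33.1 times higher.

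FOXE1 (ENSG00000178919, chromosome 9 from 97853226 to 97856717), a forkhead factor of the thyroid bud, had 0, 8 and 7 counts in siCtrl and 3, 6 and 4 in siNUF2. Its mean was 0.0167 FPKM, and 3 counts correspond to 0.00998 to 0.0119 FPKM of this gene. Its values in 5 of 6 libraries therefore were at or above the floor, without reaching the count minimum of the test.

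The genes that make the hormone were at or near 0. TG (ENSG00000042832, chromosome 8 from 132866958 to 133134899) had counts in 2 of 6 libraries, 12 in siCtrl 3 and 4 in siNUF2 3, and 0 in the other 4. That is 0.0143 and 0.00377 FPKM, and 3 counts correspond to 0.00282 to 0.00357 FPKM. The table names only 2 of the 20 TG transcripts in GENCODE release 44, a retained-intron transcript of 669 nt and one without a defined coding sequence of 743 nt, while the longest coding transcript has 8455 nt. For DUOX2, whose named transcript has 6361 nt, 3 counts correspond to 0.0034 FPKM, which lies within the TG range. The FPKM of TG were therefore scaled to a length well above 669 or 743 nt. How reads in the remaining exons were counted is not given in the sources used here, so these values may not speak for the full TG mRNA.

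SLC5A5 (ENSG00000105641, chromosome 19 from 17871945 to 17895174) had 4, 0 and 4 counts in siCtrl and 0, 4 and 0 in siNUF2. DUOX2 (ENSG00000140279, chromosome 15 from 45092650 to 45114172) had 5 counts in siCtrl 2 and 0 in every other library. Either gene was above 0 in too few libraries for a comparison, and a count of 0 allows up to 3 counts by counting error alone. TSHR (chromosome 14 from 80954989 to 81146306 in GENCODE release 44) was not analysed here, as the table gives it no row. Every one of the 32985 rows has at least 1 count in some library, the lowest sum over libraries being 1.

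The deiodinases were low, and DIO2 was the one member with higher values in every siNUF2 library than in any siCtrl library. DIO2 (ENSG00000211448, chromosome 14 from 80197526 to 80387757, minus strand), which makes active hormone inside the cell and is known as a cAMP-responsive gene, had 82, 39 and 43 counts in siCtrl and 263, 91 and 105 in siNUF2. The FPKM were 0.137, 0.0651 and 0.0765 against 0.46, 0.151 and 0.197. The 2 groups did not overlap, which held for 19.8% of all tested genes. The libraries numbered 1 were the highest of each group. DIO1 (ENSG00000211452, chromosome 1 from 53891239 to 53911085), the deiodinase of thyroid, liver and kidney, had 3, 2 and 6 counts in siCtrl and 15, 10 and 0 in siNUF2. Its siNUF2 libraries held both the highest value of all and the only 0.

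**Figure D1:**
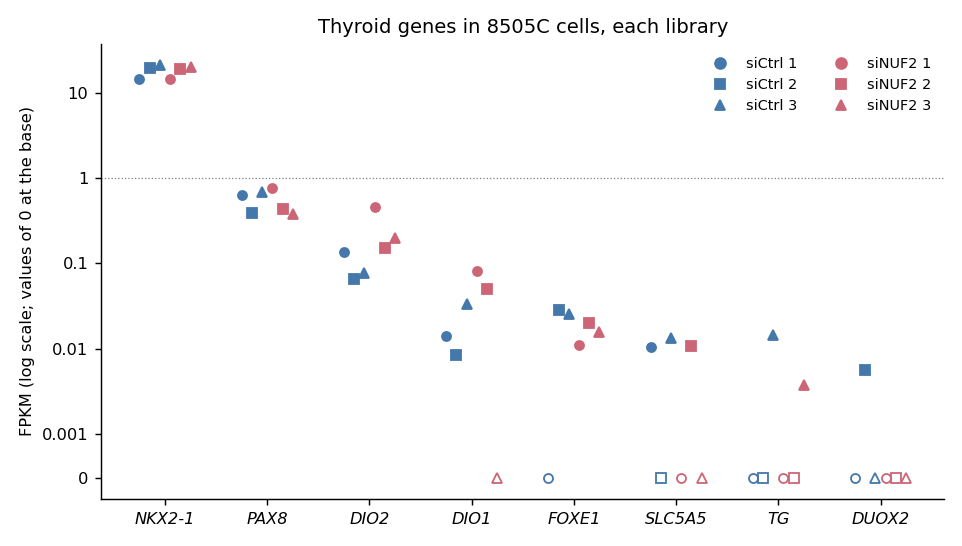
FPKM (log axis) of the 8 listed thyroid genes in each of the 6 libraries of 8505C cells, blue for siCtrl and red for siNUF2, with the marker giving the library number, open markers at the base for values of 0 and a dotted line at 1 FPKM. NKX2-1 sits between 14.6 and 21.5 FPKM in all libraries, and no other gene reaches 1 FPKM in any.

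By mean FPKM over the 6 libraries the order was NKX2-1 (18.3), PAX8 (0.551), DIO2 (0.181), DIO1 (0.031), FOXE1 (0.0167), SLC5A5 (0.00575), TG (0.003) and DUOX2 (0.000944). The step from NKX2-1 to PAX8 and that from PAX8 to DIO2 exceeded the sum of both SDs, although single libraries of PAX8 and DIO2 overlapped. No neighbours from DIO2 down to DUOX2 differed beyond that spread. Only NKX2-1 had a mean of at least 1 FPKM, as did 35.5% of all genes, and 5 were under 0.1 FPKM.

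The other listed genes of hormone synthesis were low, like the members that make the hormone. Of 11 genes of the synthesis machinery 8 were listed, all with a mean under 0.1 FPKM. DUOX1, the second hydrogen peroxide source of the follicular cell, was the highest at 0.0389 FPKM, followed by the anion transporter SLC26A7 at 0.0156 FPKM. IYD, which recovers iodide from iodotyrosines, was the lowest at 0.00157 FPKM. DUOXA2, the maturation factor of DUOX2, was not listed.

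Genes that serve thyroglobulin or the TSH signal in the follicular cell but are used in many cell types were well expressed. Of 9 genes of thyroglobulin folding and processing, 7 had a mean of at least 1 FPKM. The highest were HSPA5, a chaperone of the endoplasmic reticulum, at 238.0 FPKM and the lysosomal protease CTSL at 135.0 FPKM, while LRP2 (megalin), an endocytic receptor for TG, was the lowest at 0.000932 FPKM. All 14 genes of TSH receptor signalling were listed and 12 had a mean of at least 1 FPKM, led by GNAS, the stimulatory G protein that couples the receptor to adenylyl cyclase, at 45.5 FPKM and PRKAR1A, a regulatory subunit of protein kinase A, at 23.9 FPKM. The phosphodiesterase PDE8B was the lowest of them at 0.15 FPKM.

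Of 12 genes of hormone transport, receptors and deiodination, 11 were listed and 5 had a mean of at least 1 FPKM. The highest were EEFSEC, the elongation factor for selenocysteine that deiodinases need, at 9.18 FPKM and KLF9, a transcription factor induced by thyroid hormone, at 7.79 FPKM. The hormone receptor THRA was at 4.24 FPKM and THRB at 0.0663 FPKM, and the transporter SLCO1C1 was the lowest at 0.0108 FPKM. Of 11 transcription partners and paralogs, 9 were listed and 5 had a mean of at least 1 FPKM, led by WWTR1 (TAZ), a known coactivator of PAX8 and NKX2-1, at 7.47 FPKM and PPARG at 5.99 FPKM. PAX5 was the lowest at 0.00423 FPKM, and PAX2 was not listed.

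**Figure D2:**
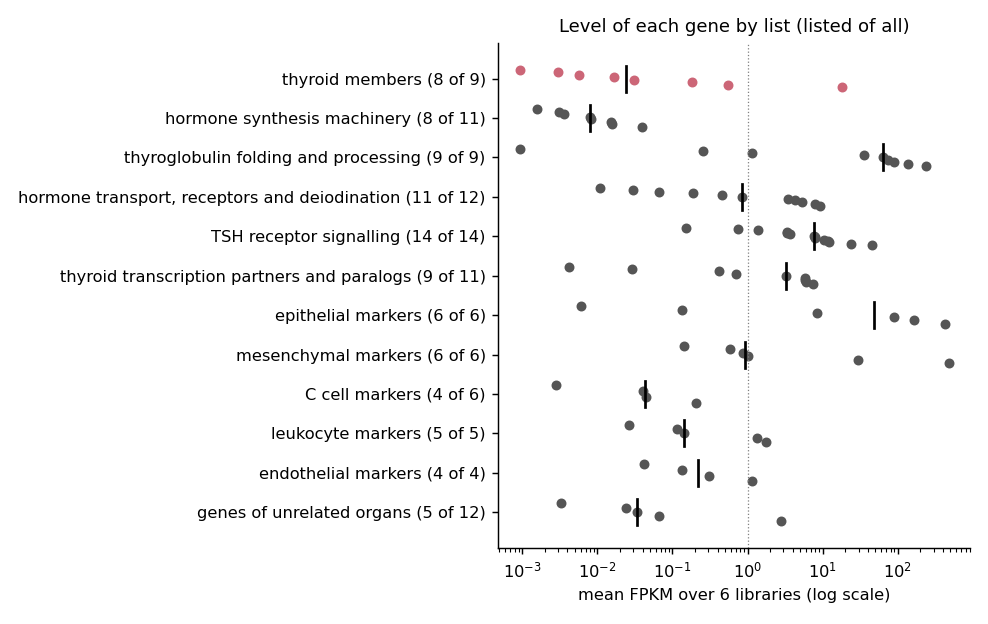
Mean FPKM over 6 libraries (log axis) of each listed gene, by gene list, with a black line at the median of a list and a dotted line at 1 FPKM; brackets give listed of all genes. The median is 0.0238 FPKM for the thyroid members, 0.00805 FPKM for the synthesis machinery and 7.7 FPKM for TSH receptor signalling.

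As a check of the label, markers of other cells were read in the same way. Of 6 epithelial markers 4 had a mean of at least 1 FPKM, the keratins KRT7 at 428.0, KRT18 at 162.0, KRT8 at 88.4 and KRT19 at 8.32 FPKM, while the adhesion genes EPCAM and CDH1 were at 0.133 and 0.00615 FPKM. Of 6 mesenchymal markers 3 had a mean of at least 1 FPKM, VIM at 479.0, FN1 at 29.3 and COL3A1 at 1.01 FPKM, while COL1A1, COL1A2 and PDGFRB were at 0.863, 0.588 and 0.143 FPKM, and the median of the list was 0.938 FPKM. The collagens COL3A1, COL1A1 and COL1A2 were lower in both libraries numbered 1 than in any other library. COL3A1 was at 0.0731 and 0.347 FPKM there and at 1.03 to 2.0 FPKM elsewhere. The 4 listed of 6 C cell markers were at most 0.207 FPKM, with the calcitonin gene CALCA at 0.00281 FPKM. The summed FPKM of 5 leukocyte markers were 10.4 in siCtrl 1 and 1.49 to 2.34 in the other 5 libraries. CD14 alone was at 0.703 FPKM in siNUF2 1 and at 1.53 to 2.23 FPKM elsewhere, so the sum hides other markers. PTPRC was at 0.518 FPKM in siCtrl 1, 0.147 FPKM in siNUF2 1 and at most 0.0178 FPKM elsewhere. CD14 and PTPRC are named after their values were seen. The summed FPKM of 4 endothelial markers were 0.686 to 3.33. Of 12 genes of unrelated organs 5 were listed, with sums of 12.4 and 4.3 FPKM in the libraries numbered 1, nearly all from HBB, and of at most 0.352 FPKM elsewhere. Of the thyroid markers themselves, NKX2-1 was the only one above 1 FPKM, and TG, FOXE1 and SLC5A5 were at or near 0. Among the thyroid markers, NKX2-1 was thus well expressed and PAX8 was low. As NKX2-1 is also a factor of lung and forebrain, these values alone do not establish the thyroid label. In bulk RNA, fewer cells that express a gene and less RNA per cell cannot be told apart.

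NKX2-1 is also a lung factor, and the genes around it were read for that reason. Of 8 lung genes that NKX2-1 is known to bind, a list added after the levels had been seen, 3 were listed, and the other 5 have no value here. The 3 were low, NAPSA at 0.126 FPKM, ABCA3 at 0.0492 FPKM and SFTPD at 0.0177 FPKM. SFTA3, the gene next to NKX2-1 and known from lung, has 2 rows in the table. The row ENSG00000229415 had 8.11, 14.3 and 10.7 FPKM in siCtrl and 5.83, 12.3 and 8.74 FPKM in siNUF2, which is 0.4 to 0.73 of the NKX2-1 value of the same library. The groups overlapped, and each siNUF2 library was below the siCtrl library of its number (log2 fold change -0.27, SE 0.29, adjusted p = 0.781 by edgeR).

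Several annotated genes overlap NKX2-1. The SFTA3 row ENSG00000257520 shares 3130 bases and its strand with NKX2-1. It had 0.892, 1.98 and 0.714 FPKM in siCtrl and 1.36, 2.84 and 2.9 FPKM in siNUF2 (log2 fold change 1.00, SE 0.47, adjusted p = 0.417 by edgeR). NKX2-1-AS1, on the opposite strand, shares 955 bases and lay between 0.238 and 0.631 FPKM. AL132857 spans the whole gene and had 6 counts in 1 library. Of the 5 transcripts that the table lists under NKX2-1, 1 (ENST00000546983) belongs to SFTA3 in GENCODE release 44. The strand setting of the counting is not given in the sources used here, so reads of NKX2-1 and its neighbours may be split. NKX2-1 was 6.75 to 30.2 times the SFTA3 row that overlaps it in the same library.

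**Figure D3:**
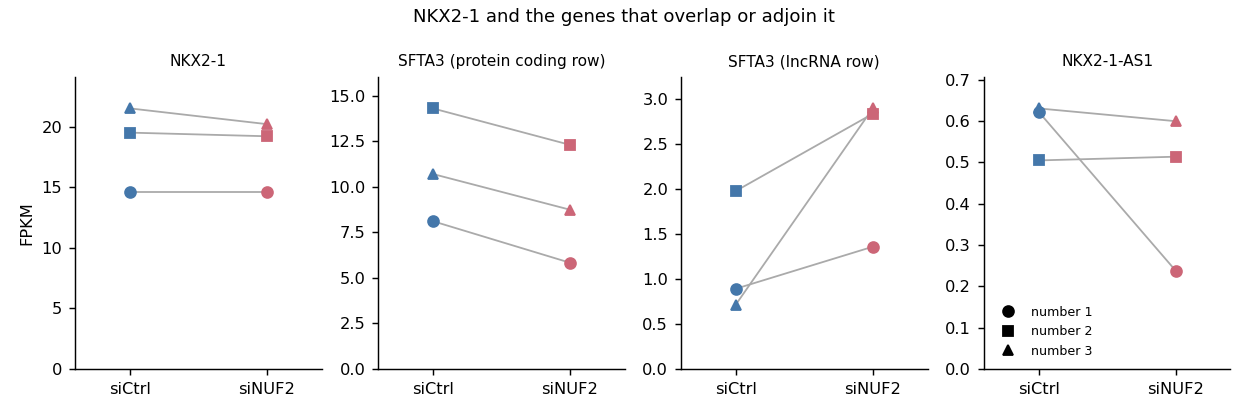
FPKM of NKX2-1, the 2 SFTA3 rows and NKX2-1-AS1 in siCtrl and siNUF2 libraries, each panel on its own linear axis from 0, with grey lines joining libraries of the same number. NKX2-1 is nearly level within each number and lowest in number 1 of both groups, at 14.6 FPKM.

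PAX8 and TG have overlapping genes as well. PAX8-AS1, on the opposite strand, shares 60585 bases with PAX8 and had 157, 84 and 148 counts in siCtrl and 211, 62 and 143 in siNUF2, with its highest value in siNUF2 1 as for PAX8. Its mean was 0.0775 FPKM (log2 fold change 0.16, SE 0.48, adjusted p = 0.935 by edgeR). SLA, inside TG on the opposite strand, had 30 and 13 counts in the libraries numbered 1 and at most 8 elsewhere, and PTCSC1, inside TG on the same strand, had 4 counts in siCtrl 1 alone.

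Whether the knockdown moved thyroid genes was asked with edgeR's quasi-likelihood test over all 19276 genes that passed its count filter. Of the 8 listed members 3 passed the filter, NKX2-1, PAX8 and DIO2, and 0 of the 3 was called at an adjusted p under 0.05, where 1.60% of all tested genes were called (309 genes, 110 higher and 199 lower in siNUF2). With the library number as a block, 1 of the 3 was called, DIO2, where 6.80% of all tested genes were called. DESeq2, which gave DIO2 no adjusted p, called 0 of them, beside 5.28% of all tested genes, and limma on log2(FPKM + 1) called 0, beside 1.65%. At an unadjusted p under 0.05, DIO2 was the member that passed, as did 2548 of all tested genes (13.2%). The median log2 fold change of the 3 was -0.02, beside 0.00 for all tested genes.

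DIO2 passed the test with the block and not without it. The log2 fold change was 1.55 (SE 0.51, 95% interval 0.39 to 2.71), which is 2.92-fold, with an adjusted p = 0.231 by edgeR. With the replicate block it was 1.46 (SE 0.29, 95% interval 0.80 to 2.13, adjusted p = 0.0261 by edgeR). Each siNUF2 library exceeded the siCtrl library of its number, by 3.35, 2.33 and 2.57 times in FPKM. The exact two-sided permutation test of 3 against 3 libraries gave p = 0.1, the smallest it can give, and 19.8% of all tested genes had groups that did not overlap. Without siNUF2 1, the highest library, the log2 fold change was 0.92 (adjusted p = 0.591 by edgeR), and without both libraries numbered 1 it was 1.31 (adjusted p = 0.582 by edgeR). These fits on fewer libraries held no block, and neither they nor the permutation test used the library numbers as pairs. DESeq2 gave the same log2 fold change and left its adjusted p undefined. The part of the HBB and LYZ reads in the level of DIO2 was not tested.

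NKX2-1 did not pass the test. Its log2 fold change was -0.02 (SE 0.18, 95% interval -0.42 to 0.38, adjusted p = 0.976 by edgeR), and the libraries of one number had FPKM ratios of siNUF2 to siCtrl of 1.0, 0.981 and 0.937. With the replicate block the interval was -0.19 to 0.15, so a change beyond these bounds lay outside the 95% interval of that fit. Without both libraries numbered 1 the log2 fold change was -0.04 (adjusted p = 0.986 by edgeR).

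PAX8 did not pass either. Its log2 fold change was -0.10 (SE 0.35, 95% interval -0.89 to 0.70, adjusted p = 0.946 by edgeR), and the ratios by library number were 1.21, 1.11 and 0.547. The libraries of the third number thus moved opposite to the others, and the interval of PAX8 holds changes in either direction. Without both libraries numbered 1 the log2 fold change was -0.39 (adjusted p = 0.924 by edgeR). The counts of DIO1, FOXE1, SLC5A5, TG and DUOX2 were below the filter, so the main fit did not test them. With no filter all 8 listed members were tested and 0 were called. At counts this low only a large difference could be seen.

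**Figure D4:**
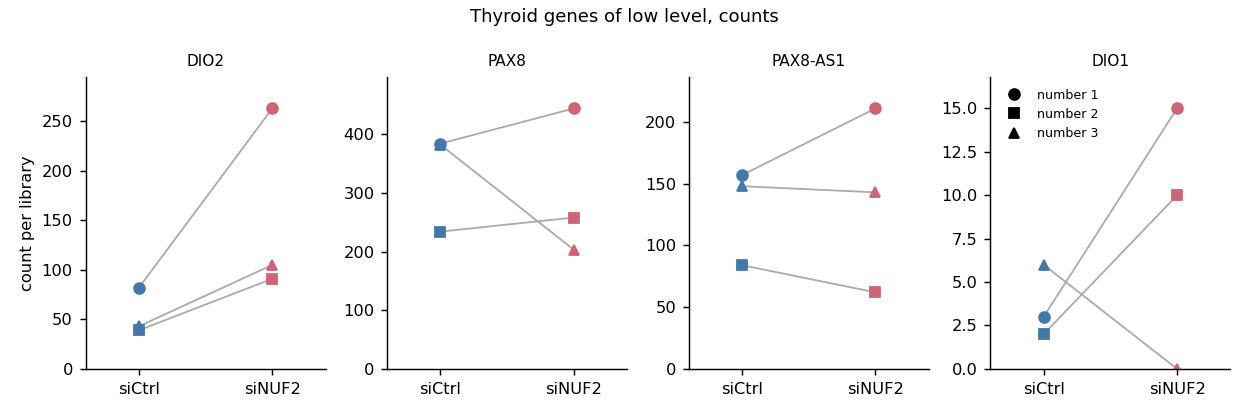
Counts per library of DIO2, PAX8, PAX8-AS1 and DIO1 in siCtrl and siNUF2, each panel on its own linear axis from 0, with grey lines joining libraries of the same number. All 3 lines rise for DIO2, from 39 to 82 counts up to 91 to 263, while the lines of the other 3 genes go both ways.

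The genes whose profile over the 6 libraries was most like that of a member were found by the root mean square difference of log2 CPM, each gene centred on its mean, over 19275 candidates. For DIO2 they were NR4A2, an orphan nuclear receptor known as an immediate early gene, with a difference of 0.25, and LINC02802 with 0.27, beside a median of 0.97 over all candidates. For NKX2-1 they were AC020916 (0.05) and IFITM3 (0.06), with a median of 0.37, and for PAX8 they were SENCR (0.11) and CD22 (0.13), with a median of 0.51. These are descriptions over 6 libraries, without a test.

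In the 5 wider lists together, 51 of 57 genes were listed and 39 were tested. None was called in either direction by edgeR. At an unadjusted p under 0.05 there were 5 (12.8%), beside 13.2% of all tested genes. DESeq2 called 2 (5.13%), beside 5.28% of all tested genes, and limma on log2(FPKM + 1) called 0, beside 1.65%. Their log2 fold changes were positive for 15 genes and negative for 24, beside 9670 and 9606 of all tested genes. The 39 had a median of -0.10 and a range of -0.65 to 0.52. With the replicate block 3 were called (7.69%), 2 of them higher, beside 6.80% of all tested genes, so these shares were near those of all genes. These 3 genes, outside the rule for named genes except WWTR1, are named after their values were seen, as a description. Among the 39 tested genes, 5 had groups that did not overlap, beside 19.8% of all tested genes.

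In TSH receptor signalling, 10 of 14 tested genes had a positive log2 fold change, with a median of 0.08, and GNAS was at 0.09 (SE 0.14, adjusted p = 0.862 by edgeR). GNA11, a G protein that couples receptors to phospholipase C, had 10.6, 9.53 and 10.2 FPKM in siCtrl and 15.8, 12.8 and 14.3 FPKM in siNUF2, without overlap. Its log2 fold change was 0.52 (SE 0.11), with an adjusted p of 0.0587 by edgeR and of 0.00729 with the replicate block. ARRB2, an arrestin that turns off G protein-coupled receptors, had a log2 fold change of 0.39 (SE 0.18), with an adjusted p of 0.42 by edgeR and of 0.0418 with the block, and its libraries overlapped. Without both libraries numbered 1, GNA11 was at 0.48 and ARRB2 at 0.39, with adjusted p of 0.439 and 0.824 by edgeR.

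In the list of transcription partners, 5 of 7 tested genes had a negative log2 fold change. WWTR1 had 9.3, 9.16 and 7.59 FPKM in siCtrl and 6.02, 6.01 and 6.76 FPKM in siNUF2, without overlap. The log2 fold change was -0.45 (SE 0.11), with an adjusted p of 0.117 by edgeR and of 0.0484 with the block, and it was -0.37 without both libraries numbered 1 (adjusted p = 0.675 by edgeR). PPARG had the opposite sign, at 0.38 (SE 0.14, adjusted p = 0.313 by edgeR, 0.0728 with the block), also without overlap.

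All 9 tested genes of hormone transport, receptors and deiodination had a negative log2 fold change, from -0.50 to -0.10, and none was called by edgeR with or without the block, with 2 at an unadjusted p under 0.05. All 9 were negative with DESeq2, its size factors and limma as well, which refit the same libraries and so are no separate support. Without siCtrl 2 there were 7 and without siNUF2 3 there were 8. Of all tested genes, 9606 were negative and 9670 positive. THRA was at -0.30 (SE 0.12, adjusted p = 0.339 by edgeR) with 4.93, 5.04 and 4.16 FPKM in siCtrl against 3.96, 3.79 and 3.57 FPKM in siNUF2. THRB was at -0.48 (SE 0.46, adjusted p = 0.756 by edgeR). EEFSEC was at -0.36 (SE 0.12, adjusted p = 0.233 by edgeR), and its libraries did not overlap either. Of thyroglobulin folding and processing, 6 of 8 tested genes had a negative and 2 a positive log2 fold change, with HSPA5 at -0.20 and CTSL at -0.14, and without siCtrl 3 the split was 3 negative and 5 positive. DUOX1, the one tested gene of the synthesis machinery, was at 0.28 (SE 0.69, adjusted p = 0.915 by edgeR).

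**Figure D5:**
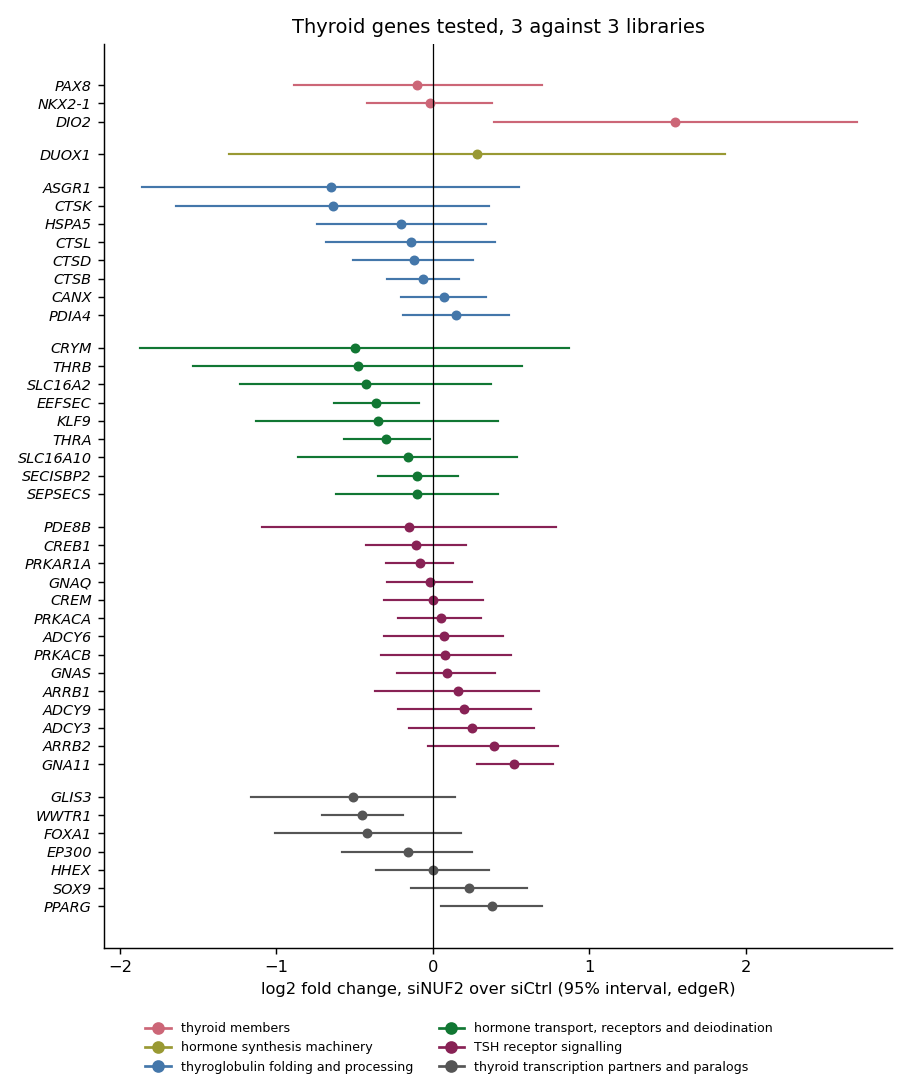
Log2 fold change of siNUF2 over siCtrl with its 95% interval (edgeR, 3 against 3 libraries, no block) for the 3 tested thyroid members and the 39 tested genes of the wider lists, coloured by list. DIO2 stands at 1.55, far from the other genes, whose values lie between -0.65 and 0.52, and its interval is also among the widest.

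The siRNA used against NUF2 was checked for partial matches in the members. The 7-base word TATGGAA pairs with bases 2 to 8 of its antisense strand, and 18.2% of 13878 tested genes with a 3′ UTR in GENCODE release 44 hold it there. It was absent from the longest annotated 3′ UTR of NKX2-1, DIO2 (5163 nt), TG, FOXE1, SLC5A5 and DUOX2. The word was present at 1 place in that of PAX8 and of DIO1. Of the 3 genes of the wider lists called with the block, which are no members, WWTR1 held it at 2 places (3570 nt). GNA11 (2820 nt) and ARRB2 (563 nt) held it at 0. Whether any of these matches bears on a level was not tested.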

How the data were processed

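RNA of 8505C cells was read as 3 siCtrl and 3 siNUF2 libraries. Per the labels and the methods, reads were filtered with fastp, aligned to GRCh38 with HISAT2 and calculated with StringTie, with no versions or annotation release given in the sources used here. The authors deposited FPKM, which correct for gene length and sequencing depth, and counts, which are raw whole numbers for each gene. All 12 per-sample columns were used. The tool that made the counts and its strand setting are not given in the sources used here.

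From the counts, edgeR 4.0.16 (R 4.3.3) was run with TMM scaling, filterByExpr (count minimum 10), group alone in the design and Benjamini-Hochberg adjustment over 19276 genes. Adjusted p under 0.05 was called. Alternatives used DESeq2 1.42.0 and limma 3.58.1 on log2(FPKM + 1) and log2(FPKM + 0.1), other filters, a replicate block and libraries left out. The fits with libraries left out held no block. Tests were checked on simulated data. No library repeats another (chi-square over degrees of freedom between replicates 60.9 to 86.8, where sampling alone gives about 1). Intervals and floors cover counting error, or the spread of these libraries, only.

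Libraries of the same number deviated together from their group means (correlations 0.254, 0.249 and 0.285, against -0.155 to -0.101 for other numbers), so the numbers pair the libraries. What a number shares is not given. Coordinates of genes are those of the deposited table. Of its genes, 32855 have an ID in GENCODE release 44, 91.6% with the same start.

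The members and lists were chosen with earlier results of these data known. Named were all members, and in each wider list the called genes, the 2 highest and the lowest by FPKM, DUOX1, DUOXA2, THRA, THRB, GNAS, WWTR1 and PAX2, genes overlapping a member, and the 2 genes most like each tested member. A listed gene and a promoter window are not reported here.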

Additional observations from a re-analysis of the deposited data

How the results depend on the processing

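The number of all genes called was 309 and came to 1017 with DESeq2, 468 with a mean FPKM of at least 1, 188 with no filter, 1310 with the replicate block (all 309 among them), 33 with limma on log2(FPKM + 0.1), 44 to 131 with 1 library left out, and 0 without both libraries numbered 1, an alternative chosen after seeing the data. Fewer libraries enter the last 2, and the cause of the other differences was not tested. Of the thyroid members, 0 were called in 13 of 14 alternatives and 1 (DIO2) with the replicate block. DESeq2 gave DIO2 no adjusted p, and the filter at a mean FPKM of at least 1 left it untested. Neither of these fits could call it. Of the wider lists, 2 genes were called with DESeq2 (GNA11 and WWTR1), 1 with a mean FPKM of at least 1 (GNA11) and 3 with the block, and 0 in the other 11 alternatives. The block changed no other call among the thyroid genes named. NUF2 kept its direction in all 14 alternatives, with a log2 fold change of -3.13 to -2.91 when 1 library was left out and of -2.86 (adjusted p = 0.116 by edgeR) without both libraries numbered 1.

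The sign of the log2 fold change of NKX2-1 turned in 3 fits, to 0.02 without siCtrl 2, 0.10 without siCtrl 3 and 0.11 without siNUF2 1, over a range of -0.17 to 0.11. That of PAX8 turned in 3, to 0.06 without siCtrl 3, 0.03 without siNUF2 2 and 0.09 without siNUF2 3, over a range of -0.48 to 0.09. DIO2 stayed positive in its 13 alternatives, from 0.21 with limma on log2(FPKM + 1), which understates low genes, to 1.93 without siCtrl 1. Under a mean FPKM of at least 1 neither PAX8 nor DIO2 is tested. The number of members with a mean of at least 1 was 1 in FPKM and 2 in TPM, where PAX8 also passes. Depth limits DIO1, FOXE1, SLC5A5, TG and DUOX2, which had at most 15 counts in any library.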
